A study of Mus musculus with 3 samples.

Results

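The cerebellum holds a few well-defined kinds of neuron, and 51 genes known as markers or identity genes of these neurons were taken here by their symbol in the GENCODE M39 mouse annotation, out of 21757 protein-coding genes. By their known expression, 17 were placed in a granule list, 21 in a Purkinje list, 8 in an interneuron list and 2 in a unipolar brush cell list, and 3 (Bcl11a, Car10 and Galntl6) were given no cell type. The data were 3 hMeDIP libraries, in which fragments of genomic DNA carrying 5-hydroxymethylcytosine (5hmC) are pulled down with an antibody and sequenced directly on a nanopore MinION, so that the same reads also report 5hmC, 5-methylcytosine (5mC) or unmodified C at each CpG. All 3 came from cerebellum DNA of 1 female C57Bl6Cr mouse aged 8 weeks, with no treatment or second genotype. Replicate 1 was precipitated with whole serum α-5hmC antibody and replicates 2 and 3 with IgG-purified α-5hmC antibody, so antibody and replicate cannot be told apart, and the spread between libraries is technical.

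Granule cells are the small, very numerous excitatory neurons of the cerebellar cortex. Their axons, the parallel fibres, run to the dendrites of Purkinje cells, the large inhibitory neurons that form the only output of the cortex, and molecular layer interneurons inhibit the Purkinje cells. 5hmC is made from 5mC by the TET enzymes, is abundant in neurons, and is known to lie within the bodies of genes that neurons express. The DNA was extracted from whole tissue and the files hold no RNA, so the cell type of a gene could not be checked against expression, and fewer cells of a type and less 5hmC per cell cannot be told apart.

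MACS2 peaks numbered 497, 8546 and 5166 in replicates 1, 2 and 3. Peaks that overlapped by at least 1 bp were merged across replicates into 13342 regions, and a region was counted for a gene when its midpoint lay in the gene body or the 1000 bp upstream. The base-call files held 69910, 104238 and 75624 CpG calls in replicates 1, 2 and 3, with a median of 1 call per CpG. Regions of the 51 genes received 93, 334 and 264 of these calls, spread over 78, 237 and 200 CpG sites, and no site there had more than 4 calls in a replicate. Shares of calls are therefore given for whole genes or lists, with exact (Clopper-Pearson) 95% binomial intervals that cover counting error only, because calls along a read are not independent. They use all calls in the merged regions, whichever replicate had the peak. In the 51 genes, 25, 298 and 222 calls of replicates 1, 2 and 3 lay inside that replicate's own peaks. Most replicate 1 calls thus came from places where that library had no peak.

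Across the 51 genes the number of regions was close to what their length gives, but it was spread very unevenly between cell types. The genes held 76 regions, against 70.8 expected from their length at the mean of 9.99 regions per Mb over all protein-coding genes. The granule list held 49 regions where 16.01 were expected, a ratio of 3.06. The Purkinje list held 15 where 19.996 were expected, a ratio of 0.75 that rests on replicate 2, since it was 1.54 without replicate 2 and 0.225 without replicate 3. The interneuron list held 1 where 16.96 were expected, a ratio of 0.059 that was 0.14 without replicate 2 and 0.0886 without replicate 3. Calb2 held both regions of the unipolar brush cell list, and the 3 genes with no cell type held 9 regions where 17.4 were expected.

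**Figure D1:**
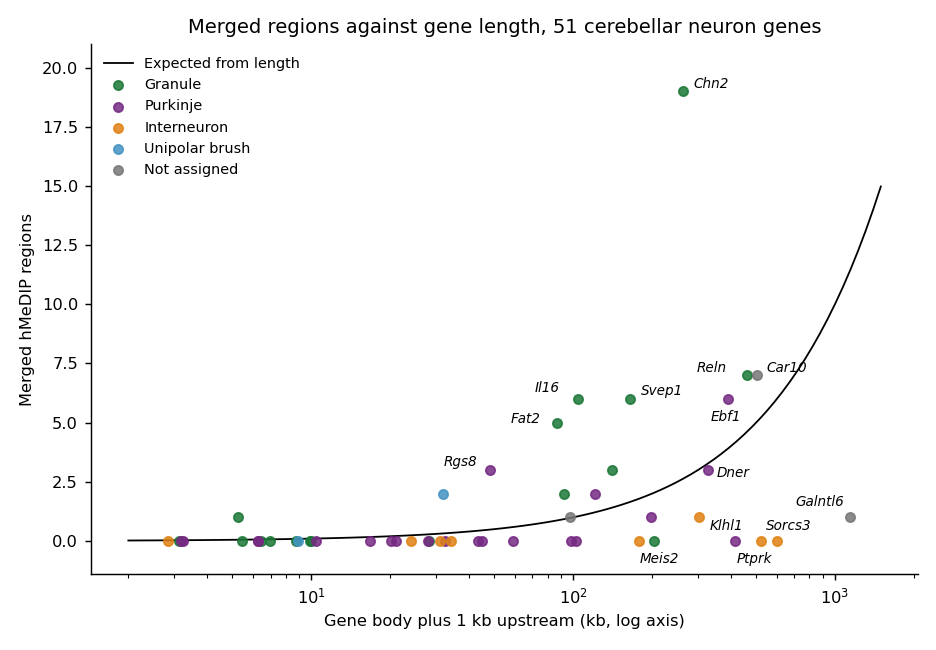
Merged hMeDIP regions (y axis) against the length of the gene body plus 1 kb upstream (x axis, kb, log scale) for each of the 51 genes, coloured by list, with a line for the number expected from length. Chn2 stands far above the line with 19 regions, whereas the long genes Sorcs3, Ptprk, Klhl1 and Meis2 lie at 0 and Galntl6, the longest, has 1.

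At least 1 region was found in 18 of the 51 genes (35.3%), against 20% of all protein-coding genes. This share depends on length. Of the 21 genes under 30 kb, 1 (4.76%) held a region, against 6.1% of all protein-coding genes under 10 kb and 14.5% of those of 10 to 30 kb. Of the 12 genes of 30 to 100 kb, 5 (41.7%) held a region, against 27.6% of all. Of the 9 genes of 100 to 300 kb, 6 (66.7%) held one, against 50.1%, and of the 9 genes of at least 300 kb, 6 (66.7%) held one, against 64.4%. The larger share among the 51 genes thus stood beside their greater length, with a median of 43.3 kb against 20.2 kb over all protein-coding genes. The median gene held no region in the whole set, in the granule, Purkinje and interneuron lists and among all protein-coding genes, so each list's total rests on a minority of its genes.

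Within the granule list the regions lay mostly in genes of surface, secreted and signalling proteins, and few lay in transcription factor genes, most of which are short. All 5 genes of the first kind (Chn2, Reln, Svep1, Il16 and Fat2) held regions, 43 in all where 10.8 were expected. Of the 12 transcription factors of the granule lineage, Meis1 held 3 regions, Etv1 held 2 and Neurod2 held 1, a total of 6 where 5.21 were expected. The other 9 held none. Of these, Neurod1, Atoh1, Zic1, Zic2, Zic5, Barhl1 and Barhl2 are under 10 kb and each was expected to hold fewer than 0.1 regions, and Zic4, at 27.3 kb, was expected to hold 0.282. Meis2, a homeobox gene of 203 kb, was the exception in length, with no region where 2.04 were expected.

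Chn2 encodes a chimaerin, a GTPase-activating protein that acts on the small GTPase Rac, and held the most regions of the 51 genes. The gene lies on the forward strand at chr6:54016483-54278796 (GRCm39) and held 19 regions where 2.63 were expected, a ratio of 7.23 that is higher than in 96.9% of protein-coding genes of 100 to 300 kb. Replicate 1 had 1 peak in Chn2, replicate 2 had 13 and replicate 3 had 5, and no peaks of different replicates overlapped there. Of the 19 regions, 11 lay in the first intron of the canonical transcript, 6 in later introns, 1 in a coding exon and 1 upstream of the gene. The 5hmC share of calls was 46.7% (21 of 45 calls), 49.4% (41 of 83) and 50.0% (13 of 26) in replicates 1, 2 and 3. The 3 replicates were thus within a few percentage points of each other, and all were above the 30.5%, 32.3% and 31.6% found in regions of protein-coding genes outside the 51. In replicate 3 the Chn2 interval (29.9 to 70.1%) included that level. Over the replicates, 48.7% of the 154 calls in Chn2 were 5hmC (interval 40.6 to 56.9%), 26.6% were 5mC and 24.7% were unmodified.

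Fat2, Svep1 and Il16 were the granule genes with a region that held peaks of more than 1 replicate. Such a region was found in 4 of the 51 genes (7.84%), the fourth being Nxph1, against 2.54% of all protein-coding genes. These shares were not matched for gene length, and the 51 genes are longer at the median. Fat2 encodes a giant atypical cadherin of parallel fibres and lies on the reverse strand at chr11:55141435-55227483. It held 5 regions where 0.869 were expected, from 3 peaks in replicate 2 and 3 in replicate 3. Its 5hmC share was 60.0% (9 of 15 calls), 45.8% (22 of 48) and 48.0% (12 of 25) across the replicates in that order. Each of these shares exceeded that of the other protein-coding genes in the same replicate. The Fat2 intervals of replicate 2 (31.4 to 60.8%) and replicate 3 (27.8 to 68.7%) included the level of those genes, however. The interval of replicate 1 was 32.3 to 83.7%. The shared region, chr11:55200255-55201299, covered part of a coding exon and had a fold enrichment (the pileup at the summit over the local background) of 4.79 in replicate 2 and 3.87 in replicate 3.

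Svep1 encodes a large secreted protein of the extracellular matrix and lies on the reverse strand at chr4:58042442-58206859. It held 6 regions where 1.65 were expected, from 4 peaks in replicate 2 and 3 in replicate 3. Its 5hmC share was 40.0% (2 of 5 calls), 38.3% (18 of 47) and 41.0% (16 of 39) in replicates 1, 2 and 3. The shared region, chr4:58206714-58207440, had its midpoint just upstream of the gene, with a fold enrichment of 2.85 in replicate 2 and 2.90 in replicate 3, both below the median of 3.83 over peaks of the 51 genes. Il16, which in neurons encodes a scaffold protein with PDZ domains, lies on the reverse strand at chr7:83292016-83395370. It held 6 regions where 1.04 were expected, from 5 peaks in replicate 2 and 2 in replicate 3, and 49.3% of its 67 calls were 5hmC (interval 36.8 to 61.8%). Its shared region, chr7:83394698-83395365, lay at the start of the gene, outside the canonical transcript, with a fold enrichment of 3.77 in replicate 2 and 4.78 in replicate 3. The sequences around the summits of the shared Fat2 and Svep1 regions are shown as the granule peaks found more than once, forward strand, CpG sites in capitals. The Fat2 stretch is chr11:55200595-55200894 and the Svep1 stretch is chr4:58206894-58207193.
Fat2: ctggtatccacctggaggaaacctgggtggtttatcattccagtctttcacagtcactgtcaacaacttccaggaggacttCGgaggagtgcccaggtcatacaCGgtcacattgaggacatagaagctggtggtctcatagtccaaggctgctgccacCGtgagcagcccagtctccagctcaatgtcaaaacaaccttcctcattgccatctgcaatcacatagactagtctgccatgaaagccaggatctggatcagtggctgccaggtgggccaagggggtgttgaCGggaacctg
Svep1: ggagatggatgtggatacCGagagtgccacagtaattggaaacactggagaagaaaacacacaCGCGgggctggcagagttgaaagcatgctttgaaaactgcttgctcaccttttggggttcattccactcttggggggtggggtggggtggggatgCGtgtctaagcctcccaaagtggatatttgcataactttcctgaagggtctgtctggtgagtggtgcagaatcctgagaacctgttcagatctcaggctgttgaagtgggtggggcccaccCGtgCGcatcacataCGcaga
The Fat2 stretch has 4 CpG sites, all called in both replicates 2 and 3, with 5 of 14 calls as 5hmC and 6 as 5mC. The Svep1 stretch has 7 CpG sites, with 5 of 11 calls as 5hmC and 2 as 5mC.

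The remaining granule genes with regions were Reln, Meis1, Etv1 and Neurod2. Reln encodes reelin, the glycoprotein that granule cells secrete and that positions Purkinje cells in development. It held 7 regions along 460 kb where 4.61 were expected, from 3 peaks in replicate 2 and 4 in replicate 3. Its 5hmC share in replicate 2 was 66.7% (18 of 27 calls) and that in replicate 3 was 27.3% (9 of 33), whereas replicate 1 had no calls, so the replicates lay on either side of the other protein-coding genes. Meis1, a homeobox transcription factor of granule progenitors, held 3 regions in introns where 1.41 were expected, and 13 of its 31 calls were 5hmC (41.9%). Etv1, an ETS-family transcription factor of maturing granule cells, held 2 regions in introns where 0.925 were expected, both from replicate 2, and 6 of its 21 calls were 5hmC (28.6%). The single region of Neurod2, a neuronal bHLH factor whose gene spans 4.24 kb, covered an untranslated exon, and 11 of its 15 calls were unmodified and 2 were 5hmC. With so few calls, the intervals of these genes (24.5 to 60.9% 5hmC in Meis1, 11.3 to 52.2% in Etv1 and 1.66 to 40.5% in Neurod2) include the level of other genes.

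Most regions of the Purkinje genes came from replicate 3. Their peak density was 1.32, 0.157 and 1.54 times that of all protein-coding genes in replicates 1, 2 and 3, so it was below that level in replicate 2 alone. The value of replicate 1 rests on 1 peak, too few to place the list above or below that level. Of the 14 Purkinje markers, Rgs8 and Dner held 3 regions each, a total of 6 where 11.8 were expected. The other 12, among them the Purkinje cell proteins Pcp2 and Pcp4, the calcium-binding proteins Calb1 and Pvalb, and Car8, Aldoc, Itpka, Ppp1r17, Gng13, Stk17b, Clmn and Klhl1, held none. Of these, Pcp2, Gng13 and Aldoc are under 10 kb, whereas Car8 (97.6 kb) and Clmn (102.03 kb) were each expected to hold about 1 region and Klhl1, which encodes an actin-binding protein along 416 kb, was expected to hold 4.17. The neurofilament genes Nefh, Nefl and Nefm, with 0.598 expected in all, held none. Of the 4 transcription factors of the Purkinje lineage, Ebf1 held 6 regions, Ebf3 held 2 and Ebf2 held 1, a total of 9 where 7.56 were expected, and Skor2 held none.

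Rgs8, a regulator of G-protein signalling, was the densest Purkinje gene and lies on the forward strand at chr1:153528714-153576069. It held 3 regions where 0.483 were expected, a ratio of 6.21, with 1 peak in each replicate at separate places: upstream in replicate 2, in an intron in replicate 1 and over an untranslated exon in replicate 3. A peak in all 3 replicates anywhere in the gene was found in 3 of the 51 genes (5.88%), Rgs8, Chn2 and Car10, against 1.08% of all protein-coding genes, and a peak in at least 2 replicates in 10 of 51 (19.6%), against 6.97%. By replicate, 3 of the 51 genes had a peak in replicate 1 (5.88%), against 1.74% of all protein-coding genes, 13 in replicate 2 (25.5%), against 15.2%, and 15 in replicate 3 (29.4%), against 11.1%. None of these shares was matched for gene length, and the 51 genes are longer (median 43.3 kb against 20.2 kb). They therefore cannot be read as a trait of the 51 genes apart from length. The 5hmC share in Rgs8 was 28.6% (2 of 7 calls), 16.7% (1 of 6) and 47.1% (8 of 17) in replicates 1, 2 and 3, a range too wide at these counts to place the gene above or below others. Of its 30 calls, 16 were 5mC (53.3%).

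Ebf1, Ebf2 and Ebf3 encode early B cell factors, transcription factors that many developing neurons also use. Ebf1, on the forward strand at chr11:44508138-44898918, held 6 regions where 3.91 were expected, from 1 peak in replicate 2 and 5 in replicate 3. Its 5hmC share was 33.3% (2 of 6 calls), 28.6% (2 of 7) and 29.6% (8 of 27) in replicates 1, 2 and 3, and 50.0% of its 40 calls were 5mC. Ebf3 held 2 intronic regions, both from replicate 3, in which 12 of 16 calls were 5mC and 4 were 5hmC. Ebf2 held 1 region, upstream of the gene, in which 5 of 7 calls were 5mC and none were 5hmC. Dner, a Notch ligand of Purkinje cells, held 3 regions where 3.27 were expected, all from replicate 3, and had 6 calls, of which 4 were 5hmC. The region of the Purkinje list with the most calls outside untranslated exons, chosen after the values were seen, is shown to give the sequence behind such a peak. It lies in an intron of Ebf1 at chr11:44577375-44577674, with CpG sites in capitals.
Ebf1: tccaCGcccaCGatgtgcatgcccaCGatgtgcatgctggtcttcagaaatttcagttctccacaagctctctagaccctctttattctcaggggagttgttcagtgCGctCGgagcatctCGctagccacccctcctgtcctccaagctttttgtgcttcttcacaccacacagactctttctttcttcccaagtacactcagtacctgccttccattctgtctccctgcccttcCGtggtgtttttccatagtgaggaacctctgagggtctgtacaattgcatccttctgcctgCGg
Its 8 CpG sites had 19 calls, 7 as 5hmC, 6 as 5mC and 6 unmodified. Of these, replicate 3, the only one with a peak there, gave 15 calls with 6 as 5hmC, and replicate 1 gave 4 with 1 as 5hmC.

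**Figure D2:**
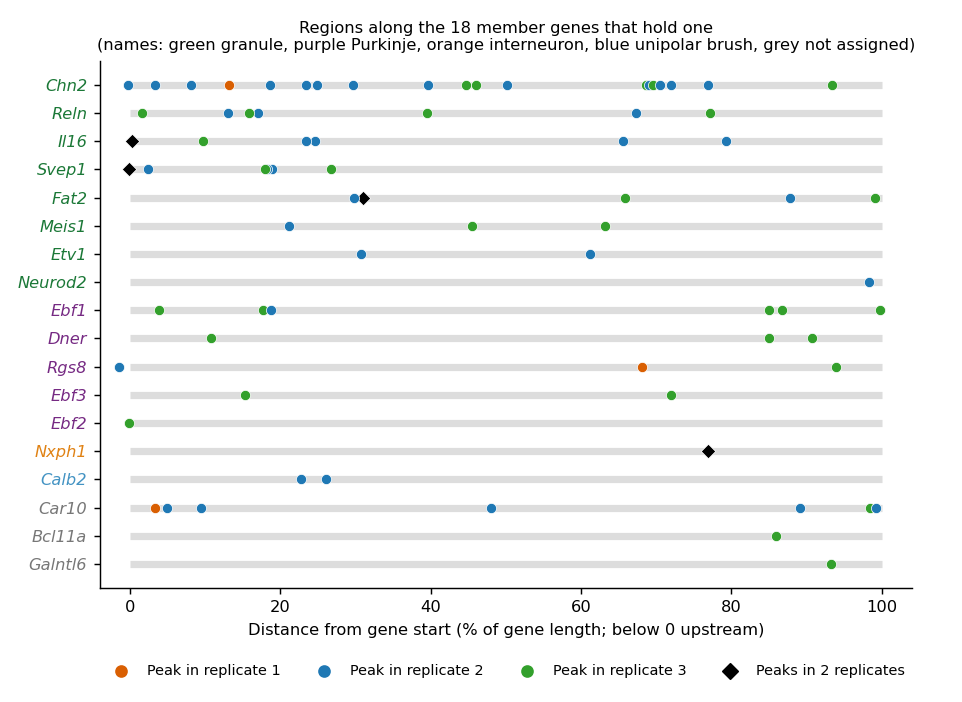
Position of each merged region along its gene (x axis, % of gene length from the gene start, values below 0 upstream) for the 18 genes with a region (y axis), coloured by the replicate with the peak and black where 2 replicates had one. Regions of Chn2 fill its first part and a cluster near 70%, Purkinje genes carry mostly replicate 3 peaks, and 4 regions are shared by 2 replicates.

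The interneuron list was nearly empty despite its length. Its markers Sorcs3 (599 kb, a sorting receptor), Ptprk (524 kb, a receptor tyrosine phosphatase), Sv2c (178 kb, a synaptic vesicle protein) and Lgi2 (33.2 kb, a secreted protein) held no region where 6.00, 5.24, 1.79 and 0.341 were expected. The transcription factors of inhibitory progenitors Ptf1a, Tfap2a and Tfap2b, with 0.578 expected in all, also held none. An absence of regions from such long genes was not rare, because 35.6% of all protein-coding genes of at least 300 kb held no region, and the same was true of 3 of the 9 genes of that size here (33.3%), which were Klhl1, Ptprk and Sorcs3. The single region of the list lay in the first intron of Nxph1, which encodes neurexophilin, a secreted ligand of α-neurexins, at chr6:9179700-9180015. It had peaks in both replicates 2 and 3, with fold enrichments of 4.41 and 6.36, the latter being the highest of any peak in the 51 genes. Its first 300 bases (chr6:9179700-9179999) are shown because they differ in kind from the other shared regions.
Nxph1: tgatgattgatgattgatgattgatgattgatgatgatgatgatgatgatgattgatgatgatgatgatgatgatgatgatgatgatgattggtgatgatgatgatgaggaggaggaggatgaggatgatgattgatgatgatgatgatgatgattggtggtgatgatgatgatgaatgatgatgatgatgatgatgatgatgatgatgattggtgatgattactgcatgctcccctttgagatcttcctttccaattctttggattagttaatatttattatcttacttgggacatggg
The stretch is largely a tandem repeat of tga and tgat units, with tga occurring 62 times, and holds no CpG. No base-call could therefore be made in it, and this most enriched region of the set has no direct reading of 5hmC. It was the only 1 of the 76 regions without a CpG.

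Among the other genes, Calb2, which encodes calretinin, a calcium-binding protein of unipolar brush cells, held 2 regions in its first intron where 0.317 were expected. Both came from replicate 2, and 7 of their 12 calls were 5mC and 3 were 5hmC. Eomes, the transcription factor of these cells, held none and was expected to hold 0.0891. Car10, a carbonic anhydrase-related protein without enzyme activity, held 7 regions where 5.04 were expected, from 1, 5 and 1 peaks in replicates 1, 2 and 3, and 21 of its 46 calls were 5hmC (45.7%, interval 30.9 to 61.0%). Galntl6, at 1139 kb the longest of the 51 genes, held 1 region where 11.4 were expected. Bcl11a, a zinc finger transcription factor, held 1 where 0.970 were expected, without a call.

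The comparison of granule with Purkinje genes was made within each replicate, on peaks per Mb of gene. In replicate 1 the granule list held 1 peak (0.624 per Mb) and the Purkinje list 1 (0.499 per Mb), so that replicate says little about their difference. In replicate 2 the granule list held 32 peaks (19.96 per Mb, exact Poisson interval 13.7 to 28.2) and the Purkinje list 2 (0.999 per Mb, interval 0.121 to 3.61). In replicate 3 the granule list held 19 peaks (11.9 per Mb, interval 7.13 to 18.5) and the Purkinje list 12 (5.99 per Mb, interval 3.10 to 10.5). The granule density was thus 1.25, 19.98 and 1.98 times the Purkinje density in replicates 1, 2 and 3. The mean difference was 8.31 ± 9.66 peaks per Mb (SD, n = 3 replicates), above 0 in 3 of 3 replicates, with p = 0.25 by the two-sided exact sign-flip permutation test, the smallest p that 3 replicates allow. It was 2.99 without replicate 2 and 2.08 with peaks of a fold enrichment of at least 4. Above 0 in 2 of 3 replicates, it was 6.35 without Chn2 and Ebf1, the genes with the most regions. The same held as a mean over genes (8.08) and without genes known from several cerebellar cell types (11.2). All protein-coding genes held 0.378, 6.37 and 3.89 peaks per Mb in the same replicates. The Poisson intervals cover counting error only and treat peaks as independent, although peaks cluster by gene and Chn2 gave 13 of the 32 granule peaks of replicate 2. With that limit, the granule intervals lay above these levels in replicates 2 and 3. The Purkinje interval lay below in replicate 2 and included that level in replicate 3.

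Replicates 2 and 3, made with the same antibody, differed most in the Purkinje list. Replicate 2 had 1.64 times the peaks of replicate 3 over all protein-coding genes and 1.68 times in the granule list, but 0.167 times in the Purkinje list, where it had 2 and replicate 3 had 12. A further 16 Purkinje genes outside the 51, such as Itpr1, Rora and Inpp5a, had 22 peaks in replicate 2 and 19 in replicate 3, a ratio of 1.16. That was below the 1.64 of all protein-coding genes, but by much less than the 0.167 of the Purkinje list. No test of this imbalance was made.

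**Figure D3:**
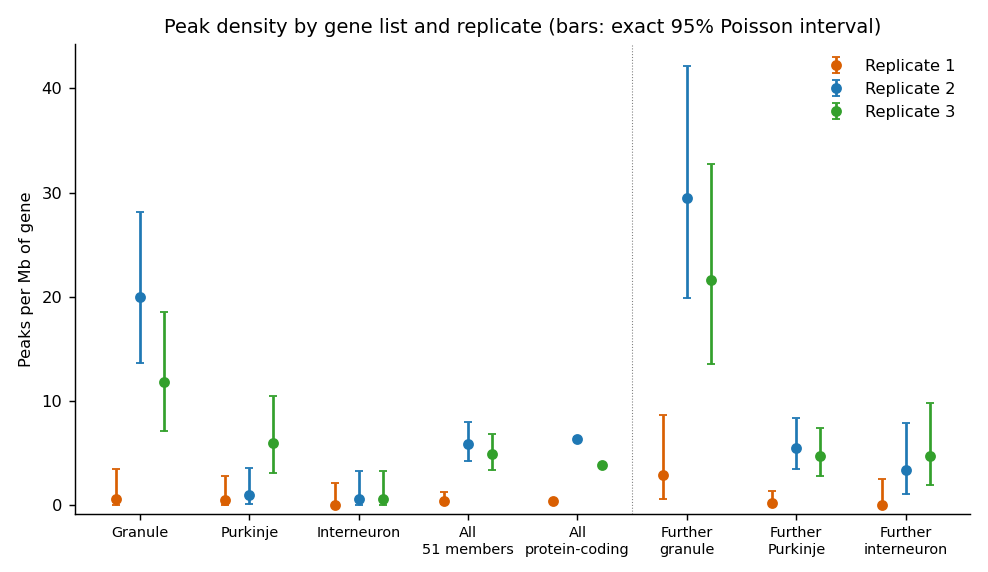
Peaks per Mb of gene (y axis) in each replicate (points, coloured by replicate, with exact 95% Poisson intervals) for the granule, Purkinje and interneuron lists, the 51 genes together, all protein-coding genes and, right of the dotted line, further cell type genes outside the 51. Of the lists plotted, both granule lists stand highest in replicates 2 and 3, and the Purkinje list changes its place between replicate 2 (0.999 per Mb) and replicate 3 (5.99 per Mb).

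Over the 51 genes as a whole, peak density did not differ from that of other protein-coding genes beyond the spread between replicates. It was 0.423, 5.93 and 4.94 peaks per Mb in replicates 1, 2 and 3, against 0.378, 6.37 and 3.88 in the others. The mean difference was 0.22 ± 0.768 peaks per Mb (SD, n = 3), with p = 0.75 by the same exact permutation test. Of the 18 genes of at least 100 kb, 3 (Chn2, Il16 and Svep1, 16.7%) held 3 or more times the regions expected from length, against 11.1% of all protein-coding genes of that size.

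The make-up of DNA in the granule regions also differed from that in the Purkinje regions, in the same direction in each replicate. The 5hmC share of calls in the granule list was 48.1% (37 of 77, interval 36.5 to 59.7%), 44.0% (121 of 275, 38.0 to 50.1%) and 44.0% (77 of 175, 36.5 to 51.7%) in replicates 1, 2 and 3. In the Purkinje list it was 30.8% (4 of 13, 9.09 to 61.4%), 23.1% (3 of 13, 5.04 to 53.8%) and 32.9% (24 of 73, 22.3 to 44.9%). The granule share was higher in 3 of 3 replicates, by 16.4 ± 4.95 percentage points (SD, n = 3), with p = 0.25 by the exact permutation test, again the smallest possible. It was 35.0 percentage points without replicate 3, where the regions left gave the Purkinje list 3 calls in replicate 1, and 15.2, above 0 in 2 of 3 replicates, without genes known from several cerebellar cell types. With calls inside each replicate's own peaks it was 27.7, and there too the Purkinje list had 3 calls in replicate 1. The intervals of the lists overlapped in every replicate, and replicates 1 and 2 gave 13 Purkinje calls each. The shares also differed by role within the lists. The 14 Purkinje markers, of which Rgs8 and Dner alone had calls, had 28.6%, 16.7% and 52.2% 5hmC (of 7, 6 and 23 calls) in replicates 1, 2 and 3, the last above the granule list. The Purkinje lineage transcription factors had 33.3%, 28.6% and 24.0% (of 6, 7 and 50 calls). The granule lineage transcription factors had 1 of 5 calls in replicate 1, 23.3% (of 43 calls) in replicate 2 and 52.6% (of 19) in replicate 3, and the 5 granule surface, secreted and signalling genes had 50.0%, 47.8% and 42.9% (of 72, 232 and 156 calls). Over the replicates, most granule calls thus came from those 5 genes and most Purkinje calls from Ebf1, Ebf2 and Ebf3.

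The 5mC share went the other way. In the granule list it was 32.5%, 26.2% and 31.4% in replicates 1, 2 and 3, and in the Purkinje list 61.5%, 53.8% and 53.4%. It was lower in the granule list in 3 of 3 replicates, with a mean difference of -26.2 ± 3.75 percentage points (SD, n = 3; exact permutation p = 0.25). In replicate 3 the intervals did not overlap (24.6 to 38.9% in the granule list and 41.4 to 65.2% in the Purkinje list). Unmodified C made up 19.5%, 29.8% and 24.6% of granule calls and 7.69%, 23.1% and 13.7% of Purkinje calls, a mean difference of 9.80 ± 2.69 percentage points (SD, n = 3; exact permutation p = 0.25), which was 15.3 without replicate 3. With calls inside each replicate's own peaks the unmodified C difference was 15.2. It was 10.8 without the gene with the most calls in each list, above 0 in 2 of 3 replicates. Without genes known from several cerebellar cell types it was 10.7, also above 0 in 2 of 3. The 5mC difference was -50.3 without replicate 3 and -42.9 with calls inside each replicate's own peaks.

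**Figure D4:**
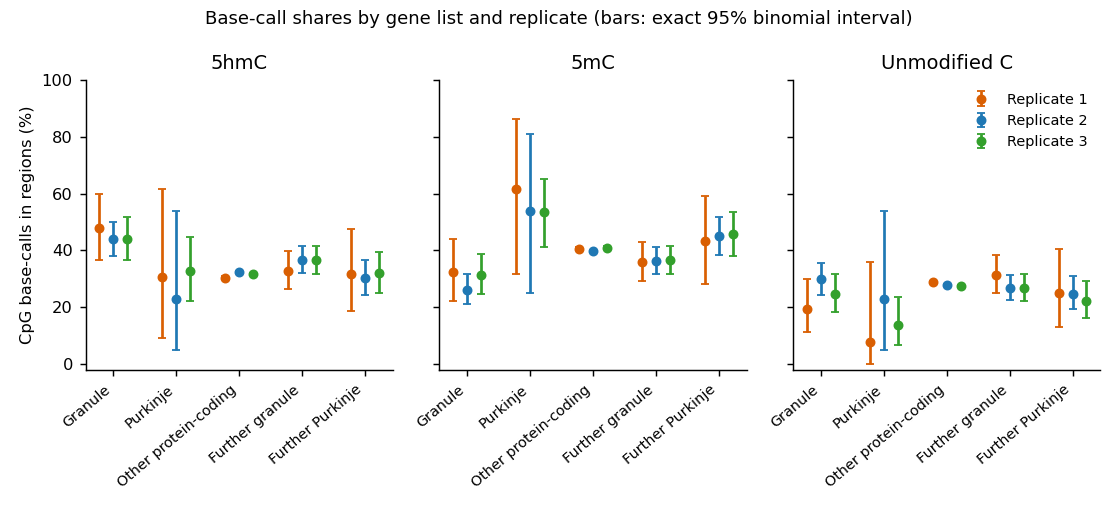
Share of CpG base-calls in merged regions read as 5hmC, 5mC and unmodified C (y axes, %) for 5 gene lists in each replicate (points, with exact 95% binomial intervals). The granule list lies highest in 5hmC and lowest in 5mC, and the wide Purkinje intervals in replicates 1 and 2 come from 13 calls each.

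Against the other protein-coding genes, regions of the 51 genes held more 5hmC in each replicate. The shares were 46.2% against 30.5% in replicate 1, 42.5% against 32.3% in replicate 2 and 40.9% against 31.6% in replicate 3. The difference was 11.8 ± 3.49 percentage points (SD, n = 3; above 0 in 3 of 3 replicates, exact permutation p = 0.25), and in each replicate the interval of the 51 genes lay above that of the others. These intervals cover counting error only and treat calls along a read as independent, so they are narrower than the true uncertainty. This 5hmC difference was 21.8 at CpG sites with at least 3 calls, which left the 51 genes 9, 47 and 24 calls in replicates 1, 2 and 3. The granule list gave 527 of the 691 calls, and the Purkinje shares lay below the other protein-coding genes in replicate 2 and close to them in replicates 1 and 3. The 5mC share was lower by 5.49 percentage points on average, from 36.6%, 30.2% and 38.3% in the 51 genes and 40.6%, 39.9% and 41.0% in the others (difference -5.49 ± 3.69, SD, n = 3; exact permutation p = 0.25). This difference was -1.33 without replicate 2, and -2.41, above 0 in 1 of 3 replicates, without the gene with the most calls (Chn2 among the 51).

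The regions themselves were like those of other genes in size and strength. Their median width was 304 bp, as in other protein-coding genes, with a median of 6 CpG sites against 7, and their median fold enrichment was 3.83 in both. Peaks of 1 replicate alone made up 72 of the 76 regions, against 10003 of 10653 in other protein-coding genes, a similar share. Calls from at least 2 replicates were present in 30 of the 76 regions (39.5%), against 49.3% in other protein-coding genes. In the granule list this was the case in 24 of 49 regions and in the Purkinje list in 3 of 15. By feature of the canonical transcript, 42 regions lay in later introns, 20 in first introns, 4 in coding exons, 4 in untranslated exons, 4 upstream and 2 elsewhere in the gene body. Later introns thus held 55.3% of the regions, against 46.8% in other protein-coding genes, and first introns 26.3%, against 31.4%. Coding exons held 5.26%, against 8.83%, untranslated exons 5.26%, against 3.23%, and the 1 kb upstream 5.26%, against 2.39%. Elsewhere in the gene body the share was 2.63%, against 7.39%. These differences were not tested. Along the gene body, divided into 3 equal parts, 34 of 72 regions (47.2%) lay in the part nearest the start, 11 (15.3%) in the middle part and 27 (37.5%) in the part nearest the end, against 36.3%, 31.1% and 32.6% in other genes. The granule list gave 24 of the 34 regions in the part nearest the start. Chn2 alone held 19 regions, so genes with many regions weigh heavily in these shares, which were not tested. None of the 13 Purkinje regions within gene bodies lay in the middle part.

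Further lists of granule, Purkinje and interneuron genes outside the 51 were drawn up with earlier results of these data known and use the same peaks. They are therefore not independent evidence. Among these lists, granule genes held the most regions for their length, most of them in Tiam1. The 10 further granule genes held 48 regions where 10.1 were expected, a ratio of 4.73. Of these, 38 lay in Tiam1, which encodes an exchange factor that activates Rac, and without it 10 regions were left where 6.57 were expected, a ratio of 1.52. Another 5 lay in Grin2c, the NMDA receptor subunit of mature granule cells. The other 5 regions lay in Kcnd2, a potassium channel gene with 2, and in Slc17a7, Gabrd and Cntn2 with 1 each, while Gabra6, Pax6, Cbln1 and Cbln3 held none. Without Tiam1 and the long gene Kcnd2, 8 regions were left where 1.42 were expected, a ratio of 5.63. The 16 further Purkinje genes held 42 regions where 39.9 were expected, a ratio of 1.05, of which 20 lay in Rora. Without Rora, 22 were left where 32.5 were expected, a ratio of 0.677. The 10 further interneuron genes held 12 where 14.7 were expected, of which 9 lay in Cdh22. The 5hmC share of the further granule genes was 32.8%, 36.8% and 36.6% in replicates 1, 2 and 3, against 31.8%, 30.2% and 31.9% in the further Purkinje genes, and this gap was not tested. Tiam1 gave 757 calls, most of those in the further granule genes. Without it 46.3% of the remaining 218 calls were 5hmC, against 31.0% of 432 calls in the 16 further Purkinje genes and 33.2% of 223 without Rora, their gene with the most calls. Kcnd2 carried that share, with 49 of its 76 calls as 5hmC, and without Tiam1 and Kcnd2 it was 36.6% of 142 calls. These comparisons were made after the values were seen. As genes of other cells, 20 genes of oligodendrocytes and astroglia held 10 regions where 7.38 were expected, and 20 liver genes held 4 where 5.05 were expected.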

How the data were processed

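For the 3 hMeDIP libraries the authors used Dorado for base-calling, minimap2 for alignment to mm39 and SAMtools for sorting. Per replicate, the authors called narrow peaks with MACS2 against a library of untreated DNA of the same tissue; the deposited lists give a fold enrichment (a ratio), −log10 of the p-value and q-value, and a display score. The deposited CpG counts and percent values come from modkit, forward strand, with repeat-masked bases excluded according to the methods. They are not confined to the peaks of the replicate that gave the calls. Whether blacklisted peaks were removed from these lists was not checked.

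Here (Python 3.11.15, pandas 2.3.3, SciPy 1.17.1), genes came from GENCODE M39, on chromosomes 1 to 19, X and Y, and the 3 peaks elsewhere were left out. Expected regions are the gene's length times the mean density of all protein-coding genes. Differences were computed within replicates and tested by a two-sided exact sign-flip permutation. Members and lists were chosen with earlier results of these data known, so the tests between lists are not independent evidence, and no enrichment test over genes was made. Genes described in full had a region with peaks of at least 2 replicates, were among the 12 densest with at least 2 regions, or had the 3 highest call totals of their list; others are named to account for every member. Functions were tested on simulated data. Some items are not reported here.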

Additional observations from a re-analysis of the deposited data

How the results depend on the processing

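The difference in peak density between granule and Purkinje genes stayed above 0 under every alternative tried except the median over genes, which was 0 for it and for the difference between the 51 genes and others. It ranged from 2.99 to 12.4 peaks per Mb when a replicate was left out (2.99 without replicate 2), and was 2.08 with peaks of a fold enrichment of at least 4, where no Purkinje region was left (ratio to expected 0), and 6.35 without Chn2 and Ebf1, the genes with the most regions, then above 0 in 2 of 3 replicates. It was also above 0 in 2 of 3 replicates as a mean over genes (8.08) and without genes known from several cerebellar cell types (11.2). The difference between the 51 genes and others was near 0 and changed sign, to -0.549 without the gene with the most regions in each list (Chn2 among the 51), -0.0755 at a fold enrichment of at least 4 and -0.20 without replicate 3 (leave-one-out range -0.20 to 0.553), and was 0.891, above 0 in 3 of 3 replicates, without the longest gene of each list. Per CpG of the gene it was also above 0 in 3 of 3. At that fold enrichment 13 regions in 8 of the 51 genes remained, and the interneuron ratio was 0.282. Leaving out a replicate gave 38 to 73 regions in 13 to 18 of the 51 genes, with 38 without replicate 2 and 45 without replicate 3. The ratio to expected stayed between 2.96 and 3.10 for granule genes, but ran from 0.225 (without replicate 3) to 1.54 (without replicate 2) for Purkinje genes and from 0.0605 to 0.14 for interneuron genes (0.14 without replicate 2, 0.0886 without replicate 3). The alternatives on regions per list, on the mean over genes and on leaving out the gene with the most regions were chosen after seeing the data.

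The 5hmC difference between granule and Purkinje genes kept its direction, at 15.03 to 35.0 percentage points when a replicate was left out (35.0 without replicate 3), 27.7 with calls inside each replicate's own peaks, and 15.2 in 2 of 3 replicates without genes known from several cerebellar cell types, where Rgs8 was the sole Purkinje gene with a region. The 5mC difference was -50.3 without replicate 3 and -42.9 in own peaks. The unmodified C difference was 15.3 without replicate 3, 15.2 in own peaks, and 10.8 and 10.7, both above 0 in 2 of 3 replicates, without the gene with the most calls and without genes known from several cell types. The 5mC difference between the 51 genes and others was -1.33 without replicate 2 and -2.41 without the gene with the most calls in each list (Chn2 among the 51), the latter above 0 in 1 of 3 replicates. At CpG sites with at least 3 calls it was -10.1, above 0 in 1 of 3 replicates, and the 5hmC difference was 21.8. Minimums of 5 calls per CpG for all shares, and of 3 for granule against Purkinje genes, left no sites to compare. Depth of about 1 call per CpG limits all shares. All differences were taken within replicates, so no further pairing was tried.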
